A study of Rattus norvegicus with 4 samples.

Results

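In all, 9 genes of voltage-gated calcium entry were examined in rat adrenal medulla, the core of the adrenal, where chromaffin cells release adrenaline and noradrenaline. They are the channel subunit genes Cacna1a, Cacna1b, Cacna1c, Cacna1d, Cacnb2, Cacnb3 and Cacna2d1 and the GTPase genes Gem and Rem2. Every probe set, a group of short probes that reports on a transcript, was taken whose platform annotation names a single gene among these 9. That gave 20 of the 31042 probe sets on the array, and each of the 9 genes, of 14217 named there, had at least 1. Total RNA was hybridised to 4 arrays: 2 hold RNA of unstressed animals and 2 that of animals held immobile over 2 h. The descriptions give no strain, sex or age, do not say whether an array holds 1 animal or a pool, and do not say whether immobilization was single or repeated. P-values therefore measure only how far these samples differ among themselves, which may be technical, and precision is limited by having 4 arrays.

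Voltage-gated calcium channels open when the membrane is depolarised. A pore-forming alpha1 subunit sets the channel type, a cytoplasmic beta subunit brings the pore to the membrane and tunes its gating, and an alpha2delta subunit raises the number of channels at the surface. In chromaffin cells, acetylcholine from the splanchnic nerve depolarises the cell, and the calcium that enters through these channels triggers the release of catecholamines. Gem and Rem2 belong to the RGK family of small GTPases, which bind the beta subunits and reduce current through the channels.

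Upstream sequence was taken from RefSeq (GRCr8) for the genes with a start site in the promoter table, 8 of the 9, with 11 starts in all. The gene without a start there was Gem, so the motif search below does not cover it. Shown are the 250 bases before the start of Rem2, before the start of Cacna1d, both genes with a probe set that read higher on the immobilized arrays, and before an internal start of Cacnb2, the gene with the called fall. They lie at chr15:31903722-31903971 on the plus strand, chr16:5527550-5527799 on the minus strand and chr17:82596542-82596791 on the plus strand, and are written 5′ to 3′ along the gene. Capitals mark motif matches.
Rem2: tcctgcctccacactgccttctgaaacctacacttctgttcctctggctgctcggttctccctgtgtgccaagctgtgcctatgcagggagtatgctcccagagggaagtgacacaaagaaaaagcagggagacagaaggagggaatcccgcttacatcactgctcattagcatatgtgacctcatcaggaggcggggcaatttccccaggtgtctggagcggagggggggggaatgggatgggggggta
Cacna1d: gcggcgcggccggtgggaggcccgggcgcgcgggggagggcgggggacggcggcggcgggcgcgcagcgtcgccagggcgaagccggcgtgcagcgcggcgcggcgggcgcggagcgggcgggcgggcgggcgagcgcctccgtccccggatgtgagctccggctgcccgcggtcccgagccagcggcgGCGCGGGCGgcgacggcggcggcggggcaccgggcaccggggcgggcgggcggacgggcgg
Cacnb2: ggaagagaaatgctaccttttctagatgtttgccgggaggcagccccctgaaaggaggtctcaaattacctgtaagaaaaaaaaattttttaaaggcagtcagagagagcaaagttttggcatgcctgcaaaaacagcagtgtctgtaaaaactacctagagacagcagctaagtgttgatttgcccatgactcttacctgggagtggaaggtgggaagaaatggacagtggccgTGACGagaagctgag

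Both strands of these 250-base windows were searched for the cAMP response element TGACGTCA, its shorter form TGACG, which also lies within the full element, the AP-1 site TGANTCA and the Egr site GCGNGGGCG. In the table of 33469 promoters, the share that held each motif was 1.59%, 18.2%, 6.34% and 4.29%. Of the 11 windows before starts of the calcium genes, 0 held TGACGTCA and 0 held TGANTCA, while 4 held TGACG and 4 held GCGNGGGCG. The 4 with an Egr match were 72% to 88.8% G or C, and the other windows 45.6% to 78.8%. Cacna2d1 gave 3 of the 11 windows, some of them overlapping. Whether these shares differ from those of all promoters was not tested. The window of Rem2 held none of these 4 motifs, nor did the window before the other start of Cacnb2, which is not shown. The capitals in the Cacna1d window are an Egr match that begins 61 bases before the start, and those in the Cacnb2 window a TGACG match that begins 15 bases before it. A match describes letters in the window and was not tested as a binding site.

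Among the channel genes and their GTPase inhibitors, the clearest difference was a rise of Gem. Of the 20 probe sets, 10 were bright enough to be tested, covering 8 genes. The filter used the mean of the log2 values over the 4 arrays, whose cut-off corresponds to an intensity of 544. At an adjusted p under 0.05 in limma (Benjamini-Hochberg over all 18625 tested probe sets), 1 was called higher, that of Gem, and 1 lower, a probe set of Cacnb2. Of all tested probe sets 31.1% were called, 11.7% higher (2180) and 19.4% lower (3619), so 2 calls among 10 is no higher a share than the background. The median log2 change of the 10 was -0.17, against -0.12 over all tested probe sets. With each array centred on its median, 2844 were called higher and 2497 lower over all tested, and the same 2 calls stood among the 10. The readings of the groups did not overlap at 6 of the 10 tested probe sets, against 67.8% of all tested, and at 13 of the 20, against 59.1% of all probe sets. In these bulk samples, fewer cells of a type and less RNA per cell cannot be told apart.

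**Figure D1:**
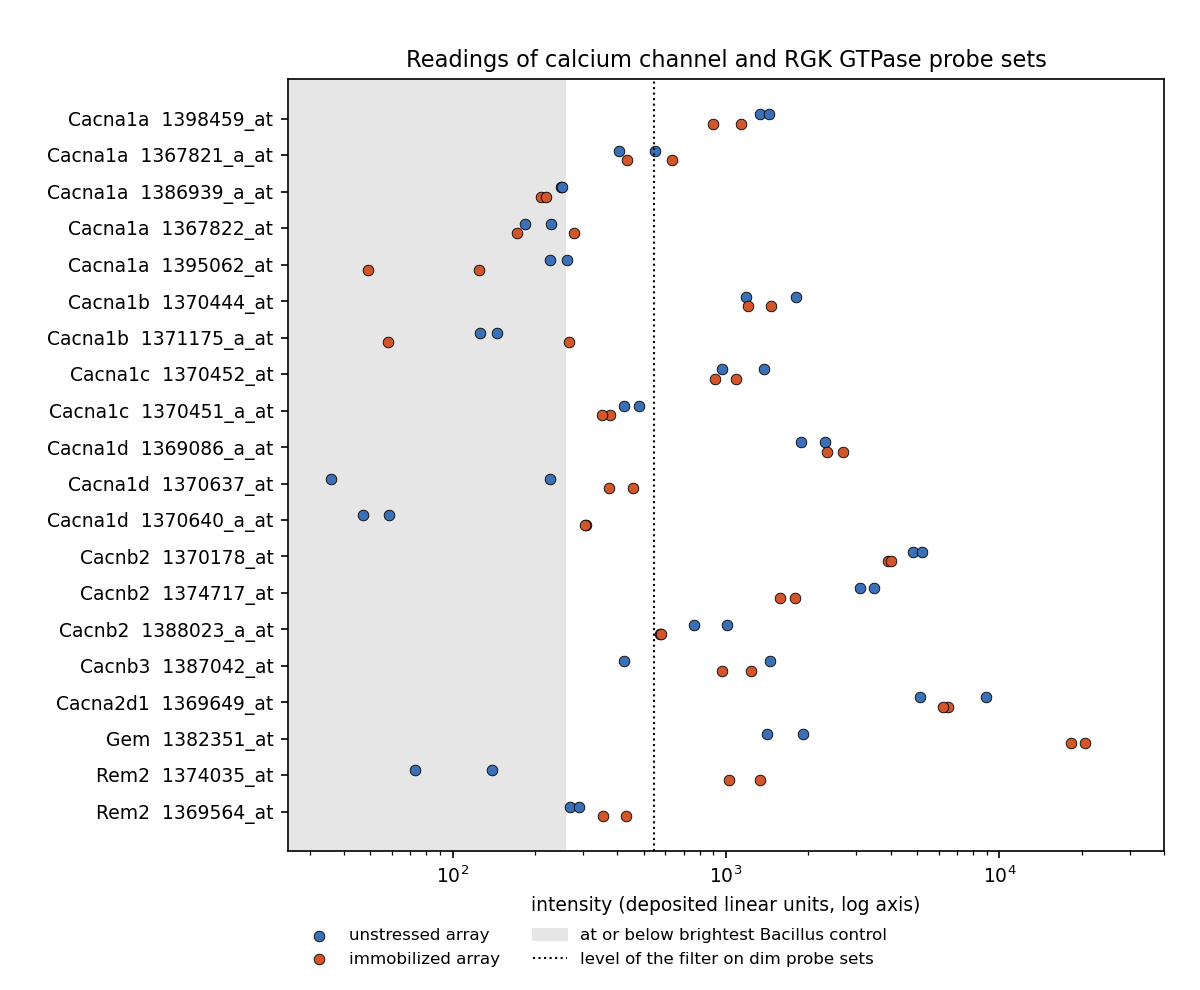
Intensity of each of the 20 probe sets on the 2 unstressed (blue) and 2 immobilized (orange) arrays, on a log axis; 1 point is 1 array, the shaded range ends at the brightest Bacillus control reading, 257, and the dotted line marks the filter level, 544. The immobilized readings of Gem and of the brighter Rem2 probe set lie far to the right of the unstressed ones, while most channel subunits overlap or lie close together.

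Gem, the GTPase that binds beta subunits and lowers the number of working channels at the cell surface, read 1905 and 1412 without stress and 18296 and 20567 after immobilization. Both immobilized readings lay far above both unstressed ones. The mean intensity went from 1658 ± 349 to 19432 ± 1610 (SD, n = 2 per group). Gem rose by 3.55 ± 0.17 on the scale of log2(intensity + 16), or 11.7-fold (SE, 95% interval 3.14 to 3.96, limma adjusted p = 7.28e-05). That change ranked 73 among the 18625 tested probe sets by size of rise. Leaving out each array in turn gave changes from 3.34 to 3.77, all past the threshold.

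Rem2, the RGK member best known from neurons and endocrine cells, had 2 probe sets, and in both the mean of the log2 values lay under the filter level, so neither entered the main test. The brighter by that mean was the dimmer of the 2 on the unstressed arrays. It read 139 and 72.9 without stress and 1335 and 1024 after immobilization. The groups were far apart, and both immobilized readings exceeded the filter level. The unstressed readings lay within 2.18 to 257, the range of 27 control probe sets for Bacillus sequences, so they were not shown to lie above background. In a fit with no filter on dim probe sets, the change was 3.33 ± 0.40 on the log2 scale (adjusted p = 0.00402 in limma). Of all 31042 probe sets in that fit 6.69% were called higher and 10.6% lower, and of the 20 for the channel and GTPase genes 3 were called higher (1 each of Gem, Rem2 and Cacna1d) and 1 lower (Cacnb2). With the unstressed readings raised to the brightest Bacillus control on each of those arrays, 193 and 189, the immobilized level was 5.74-fold higher. That ratio leaves out the spread between arrays. Without immobilized 1 the adjusted p of this change was 0.054 (limma).

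The dimmer Rem2 probe set read 268 and 290 against 429 and 356. It also had both immobilized readings above the unstressed ones, but its log2 change was 0.47 ± 0.33 and it did not pass with no filter (adjusted p = 0.402 in limma). The probe sets of Rem2 thus disagree in size, and which of them reports the gene better was not tested.

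The remaining RGK genes, from the list of related genes, gave no call. Rem1 read 970 and 690 against 1111 and 1146, a log2 change of 0.46 ± 0.24 (adjusted p = 0.201 in limma), and a dimmer probe set had a change of -0.03. Rrad, the family member known from muscle, read between 14.8 and 28.6 on the 4 arrays, within the range of the Bacillus controls, and was not tested.

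Of the 4 pore subunit genes none was called by its brightest probe set, with a median log2 change of -0.17. Cacna1a, the pore of P/Q-type channels, read 1329 and 1441 against 1134 and 898 after immobilization. The groups did not overlap, but the log2 change of -0.45 ± 0.22 did not pass (95% interval -0.97 to 0.07, adjusted p = 0.164 in limma). Its other 4 probe sets were under the filter level. Their log2 changes ran from -1.44 to 0.15, and the largest of these came from readings of 228 and 261 against 48.9 and 125, close to or within the range of the Bacillus controls.

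Cacna1b, the pore of the N-type channel, read 1807 and 1184 against 1466 and 1207. The immobilized readings fell between the unstressed ones, and the log2 change was -0.14 ± 0.26 (95% interval -0.76 to 0.49, adjusted p = 0.727 in limma). A dim Cacna1b probe set read 126 and 145 against 58.1 and 266, with the immobilized arrays on either side of the unstressed ones. Cacna1c, the pore of the L-type channel of heart and smooth muscle, read 1377 and 968 against 911 and 1088, with overlap. Its log2 change was -0.21 ± 0.25 (95% interval -0.81 to 0.39, adjusted p = 0.563 in limma). The second Cacna1c probe set, under the filter level, read 422 and 482 against 375 and 351, lower on both immobilized arrays.

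Cacna1d encodes the pore of the L-type channel that opens at more negative voltages and supports pacemaking in chromaffin cells. Its brightest probe set read 2304 and 1881 against 2688 and 2349. Both immobilized readings were the higher ones, narrowly, and the log2 change of 0.27 ± 0.19 did not pass (95% interval -0.17 to 0.71, adjusted p = 0.311 in limma). A probe set under the filter level read 47.2 and 58.5 against 307 and 305. Here the groups stood well apart, and in the fit with no filter the log2 change was 2.23 ± 0.39 (adjusted p = 0.0134 in limma). Its unstressed readings lay within the range of the Bacillus controls. Against the brightest of these on each unstressed array the immobilized level was 1.56-fold higher, a ratio that leaves out the spread between arrays. Leaving out either immobilized array ended the call (limma adjusted p = 0.0866 without the first and 0.0928 without the second).

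The third Cacna1d probe set read 228 and 35.8 against 458 and 374. Its immobilized readings were again the higher ones. The log2 change of 1.94 ± 0.73 did not pass with no filter (adjusted p = 0.126 in limma). Both unstressed readings lay within the range of the Bacillus controls over all arrays. Only 35.8 lay under the brightest control on its own array, 189. With that reading raised to 189 and the other kept, the immobilized level was 1.93-fold higher, a ratio that leaves out the spread between arrays. All 3 probe sets of Cacna1d thus read higher on the immobilized arrays, with log2 changes that ran from 0.27 to 2.23. The groups did not overlap, in either direction, at 59.1% of all probe sets.

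**Figure D2:**
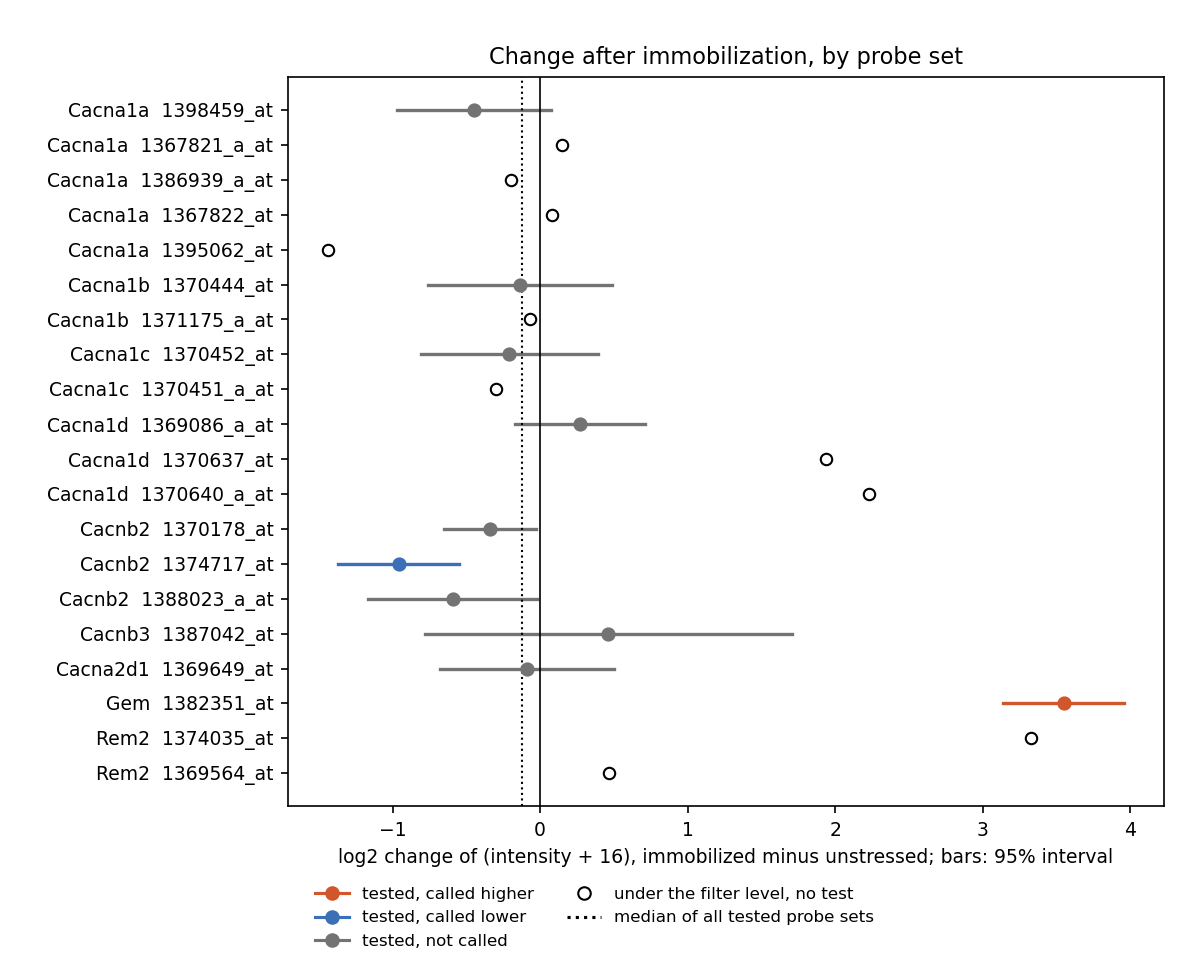
Log2 change of (intensity + 16), immobilized minus unstressed, for the 20 probe sets; filled points were tested, bars are their 95% intervals, open points were under the filter level, and the dotted line is the median of all tested probe sets, -0.12. Gem at 3.55 and a Cacnb2 probe set at -0.96 are the coloured points, and the intervals of the tested pore subunits include 0.

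Cacnb2 encodes a beta subunit, the partner that RGK proteins bind, and was the only channel gene with a call among the tested probe sets. The probe set of middle brightness read 3485 and 3101 in unstressed and 1577 and 1793 in immobilized animals. Both immobilized readings lay well below the unstressed ones. It fell by 0.96 ± 0.17 on the log2 scale, or 1.95-fold (SE, n = 2 per group, 95% interval -1.37 to -0.55, limma adjusted p = 0.00748). Leaving out either immobilized array ended the call: the change was then -0.87 (limma adjusted p = 0.0727) or -1.05 (0.0549).

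The brightest Cacnb2 probe set read 4830 and 5215 against 3901 and 4000, and its log2 change of -0.34 ± 0.13 did not pass (adjusted p = 0.088 in limma). The dimmest read 761 and 1012 against 576 and 577, with a change of -0.59 ± 0.24 (adjusted p = 0.107 in limma). On all 3 probe sets both immobilized arrays read below both unstressed arrays. The groups did not overlap, in either direction, at 67.8% of all tested probe sets. Differences in size between the 3 were not tested.

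Cacnb3, the beta subunit prominent in neurons and endocrine cells, read 1450 and 425 against 1237 and 965. The unstressed arrays lay on either side of the immobilized ones, 1.73 apart on the log2 scale. Its log2 change of 0.46 ± 0.52 had a 95% interval of -0.78 to 1.71 (adjusted p = 0.536 in limma). The sign depended on which unstressed array was kept: 1.33 without unstressed 1 and -0.40 without unstressed 2. In the first of these fits the remaining unstressed reading, 425, was under the filter level, so Cacnb3 entered only through its immobilized readings.

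Cacna2d1, an alpha2delta subunit and a binding site of gabapentin, read 5103 and 8915 against 6479 and 6198. The immobilized readings again lay between the unstressed ones, with a log2 change of -0.09 ± 0.25 (95% interval -0.68 to 0.50, adjusted p = 0.813 in limma). It too turned on the unstressed arrays: -0.49 without unstressed 1 (adjusted p = 0.0245 in limma) and 0.31 without unstressed 2. For Cacnb3 and Cacna2d1 the spread between the unstressed arrays exceeded the difference between the groups.

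The channel subunits outside the 9 genes gave no call among those tested. Of 6 further pore subunit genes 1 was tested, Cacna1h, the pore of a T-type channel, with readings of 1645 and 260 against 1338 and 1656. Its log2 change of 1.15 ± 0.74 did not pass (adjusted p = 0.276 in limma), unstressed 2 stood far below the other arrays, and a dimmer probe set had a change of 0.05. Without unstressed 1 the change was 2.45, and without unstressed 2 it was -0.14. In the first of these fits the remaining unstressed reading, 260, was under the filter level, so the probe set entered only through its immobilized readings. Of 11 further auxiliary subunit genes on the array, 4 were tested and 0 called. The largest changes were -0.49 for Cacng3, a gamma subunit that acts on glutamate receptors, and 0.47 for Cacna2d3, an alpha2delta subunit. Without unstressed 1 the change of Cacna2d3 was 1.04 (adjusted p = 0.0136 in limma).

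Beyond the channels, 48 genes of calcium signalling were tested, the further subunits and RGK genes included, each by its brightest probe set: 5 were called higher and 7 lower. Those counts are 10.4% and 14.6%, against 11.2% and 21.8% of all 10320 genes tested, and the median log2 change was -0.01, against -0.14. Among 7 tested proteins that bind the channels or the RGK GTPases, 1 rose and 0 fell. It was Stac, an adaptor that binds L-type channels, which read 2200 and 1435 against 4479 and 4270, both immobilized readings being the higher. Stac rose by 1.29 ± 0.22 on the log2 scale (adjusted p = 0.0066 in limma), and leaving out either immobilized array ended the call (limma adjusted p = 0.072 and 0.0679).

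Of 15 tested genes for calmodulin-dependent kinases, calcineurin and NFAT factors, 2 rose and 4 fell, with a median log2 change of -0.14. Both rises were of regulators of the phosphatase calcineurin. Rcan1 read 3325 and 2705 against 15236 and 15963, a log2 change of 2.37 ± 0.14 (adjusted p = 0.000156 in limma). Rcan2 read 429 and 469 against 2020 and 2521, a change of 2.29 ± 0.22 (adjusted p = 0.000921 in limma). The groups stood far apart at both genes. Both unstressed readings of Rcan2 were under the filter level, so it entered the test only through its immobilized readings.

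Camkk1, a kinase that activates other calmodulin-dependent kinases, read 3638 and 4476 against 913 and 878, with both immobilized readings far below the unstressed ones. It fell by 2.15 on the log2 scale (SE 0.19, adjusted p = 0.000633 in limma). The transcription factor genes Nfatc3 and Nfatc2, which calcineurin activates, had changes of -1.30 ± 0.14 and -0.76 ± 0.21 (adjusted p = 0.0014 and 0.0346 in limma). Camk2g, a subunit of the kinase CaMKII, had -0.81 ± 0.23 (adjusted p = 0.0356 in limma), and a dimmer Camk2g probe set had 0.21. A dimmer Nfatc2 probe set, under the filter level, read 200 and 260 against 348 and 262, a change of 0.38. The calls on Nfatc2 and Camk2g were lost after quantile normalization (adjusted p = 0.0565 and 0.06 in limma), without unstressed 1 (0.0992 and 0.0742), without immobilized 1 (0.142 and 0.158) and without immobilized 2 (0.163 and 0.179). That of Nfatc2 was also lost after median centring (0.0567), and that of Camk2g without the trend (0.0543) or the filter (0.0547).

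Of 11 tested store channels and pumps, 1 rose and 1 fell. Atp2a2, the pump that returns calcium to the endoplasmic reticulum, read 17619 and 15506 against 29630 and 25829. Its log2 change was 0.74 ± 0.14 (adjusted p = 0.00901 in limma), and leaving out immobilized 1 ended the call (0.64, limma adjusted p = 0.0567). Its other 2 tested probe sets had 0.56 and 0.91, and 2 under the filter level had 0.33 and -0.53. Orai3, a store-operated channel, read 2583 and 2492 against 982 and 1045, a change of -1.31 ± 0.18 (adjusted p = 0.00319 in limma). The groups overlapped at neither gene.

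Of 7 tested genes for calcium transport at the plasma membrane and mitochondria, 1 rose and 2 fell. Atp2b1, the pump that expels calcium from the cell, read 8137 and 5645 against 24169 and 23331. Its log2 change was 1.81 ± 0.18 (adjusted p = 0.00104 in limma), and its other 2 probe sets had 1.72 and 1.74. Micu2, a regulator of the mitochondrial uniporter, read 7023 and 8189 against 3306 and 3488, a change of -1.16 ± 0.14 (adjusted p = 0.00179 in limma). Slc8b1, a mitochondrial sodium-calcium exchanger, had -0.79 ± 0.21 (adjusted p = 0.0309 in limma), which was lost without unstressed 1, immobilized 1 or immobilized 2 (0.0723, 0.095 and 0.174). The calcium buffer genes Calb2 and Calb1 did not pass, at 0.62 and 0.38. Calb1 passed without unstressed 1 (0.82, adjusted p = 0.00827 in limma).

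**Figure D3:**
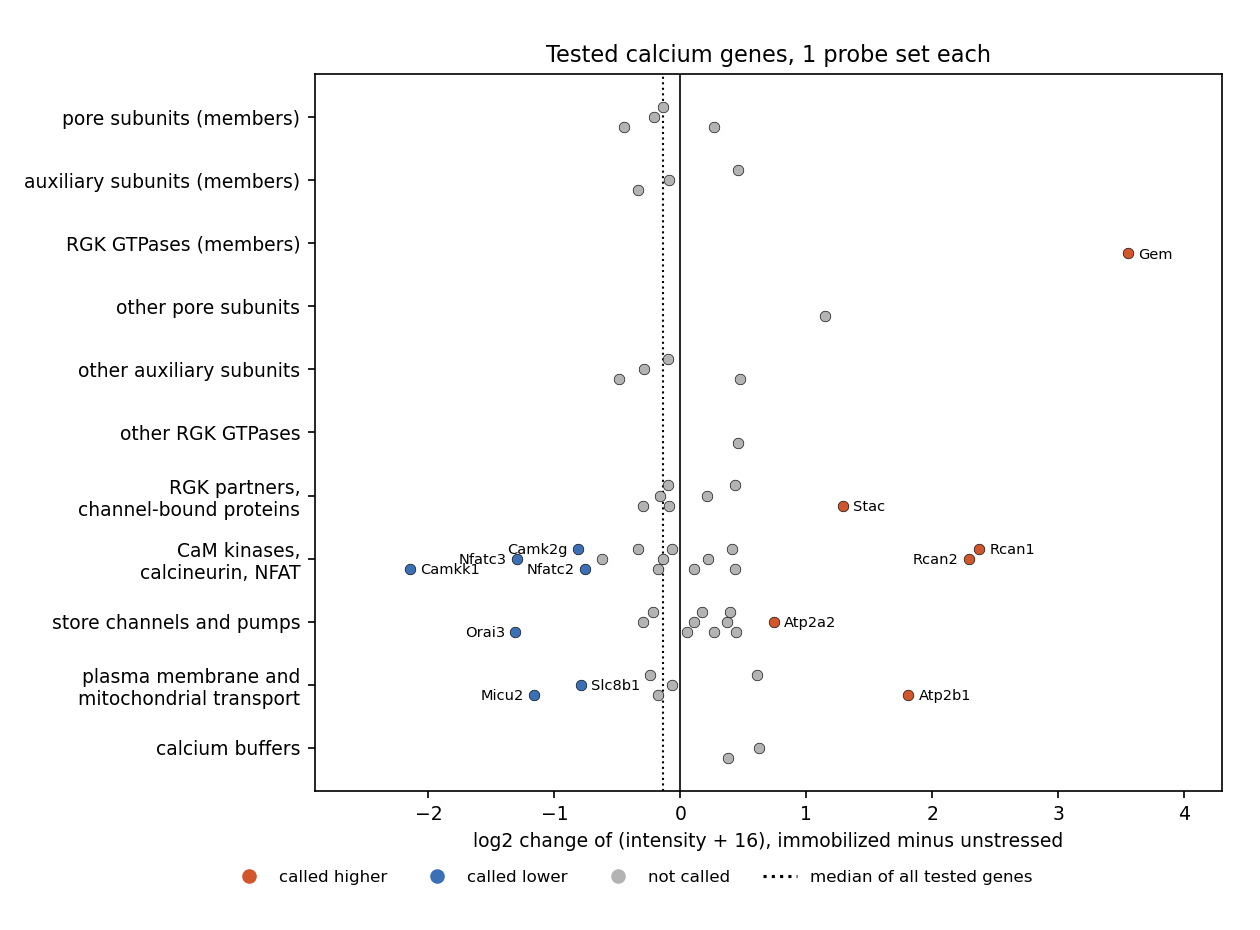
Log2 change of (intensity + 16), immobilized minus unstressed, of every tested calcium gene by its brightest probe set, grouped by role; 1 point is 1 gene, coloured where the adjusted p was under 0.05, and the dotted line is the median of all tested genes, -0.14. Gem at 3.55 lies farthest to the right and Camkk1 at -2.15 farthest to the left of the genes shown.

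The genes outside these lists with a profile nearest to that of Gem, by the root mean square difference of log2 values centred on each probe set's mean over the 4 arrays, were Klf4, Ezh2 and Fam222a. The differences were 0.0618, 0.0668 and 0.085. Klf4, a zinc finger transcription factor, read 1439 and 1136 against 15489 and 15881. Ezh2, a histone methyltransferase, read 770 and 598 against 6998 and 8779. Another probe set of Ezh2 had a log2 change of 3.58, and a dim one of 0.11. Fam222a read 2869 and 1970 against 28104 and 27275. All 3 thus had a low pair and a high pair of readings, as Gem did, and over 4 arrays such likeness says little more than that.

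The treatment and tissue were checked on other genes. The Fos probe set that was tested read 574 and 291 against 12288 and 14407, while a second one stayed within the range of the Bacillus controls on all arrays. The unstressed mean of the tested one, 433, was under the filter level, so it entered the test only through its immobilized readings. All 6 chromaffin markers, Th, Dbh, Pnmt, Chga, Chgb and Slc18a1, were tested and 0 called, with summed readings of 264128 to 283086 in the unstressed and 245616 to 353081 in the immobilized group. Markers of the adrenal cortex were also bright: Cyp11a1 read 41966 to 66853 over the 4 arrays, so the samples were not chromaffin cells alone. Of 5 tested cortical markers 1 rose, Nr5a1 (0.47), while Cyp11a1, Cyp11b1 and Cyp21a1 had log2 changes of -0.35, -0.64 and -0.27 that did not pass. The median of the 5 was -0.27, and the summed readings of the 6 on the array were 202058 to 234987 against 167989 to 220112.

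Among markers of other cell types, the summed readings of the smooth muscle list were higher on both immobilized arrays. Of 4 tested smooth muscle markers 2 rose, Acta2 (1.36) and Tagln (0.84). Myh11 had a log2 change of 0.31 and Des of -0.22, neither of which passed. The sum over 5, most of it from Tagln and Acta2, was 14657 to 16338 against 26851 to 27454. Of 4 endothelial markers 1 fell, Kdr (-0.79). Tek had a log2 change of -0.33, Pecam1 0.54 and Vwf 0.36, none of which passed, and the median was 0.02. Their sum, most of it from Kdr and Tek, was 30525 to 39686 against 24949 to 27076. Of 3 tested markers of Schwann and sustentacular cells, S100b fell and Gfap rose, and the sum over 4 was 6860 to 8046 against 6264 to 7154. The unstressed mean of Gfap, 538, was under the filter level, so it entered the test only through its immobilized readings. Of 5 fibroblast, 5 macrophage and 2 erythrocyte markers 0 were called, and the 3 adipocyte markers lay under the filter level. Of the cortical markers, Cyp17a1 lay within the range of the Bacillus controls on all 4 arrays. No marker was at 0. The part of these cells in the changes of Gem, Rem2, Cacnb2 and the other calcium genes was not tested.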

How the data were processed

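The authors deposited linear intensities, 1 for each probe set on each array. The sources used here do not give how probes were summarised. Each deposited column has the same trimmed mean, 2501 with 2% of values left out at each end, so no scaling was added. The 57 control probe sets were left out. Values were turned into log2(intensity + 16), which understates changes of dim probe sets. Probe sets with a mean under the 40th percentile were not tested, which left 18625. The comparison used limma 3.58.1 under R 4.3.3: lmFit, then eBayes with a trend on intensity. Tests were two-sided, and p-values were adjusted by Benjamini-Hochberg across every probe set tested. The prior gave 4.81 of 6.81 degrees of freedom. An exact permutation test of 2 arrays against 2 cannot go below 0.333. The script was tested on simulated data.

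Gene names came from the platform annotation, updated by Entrez identifier through a GRCr8 gene table. A gene in a list was represented by its brightest probe set. The members and lists were chosen with earlier results of these data known. Genes outside the 9 were named by a rule: in each list up to 6 called genes or, where it had no call, its 2 largest changes, the 3 profiles nearest to Gem, and Fos. Rrad and the markers are named as well. Alternatives were quantile normalization, median centring, offsets of 1 and 64, no filter, a stricter filter (60th percentile), robust eBayes, eBayes with no trend, a threshold of 0.10, each array left out, and, for the lists, averaging the tested probe sets of a gene. Plots were drawn with matplotlib 3.10.9.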

Additional observations from a re-analysis of the deposited data

How the results depend on the processing

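The rise of Gem stayed past the threshold under all 12 alternatives, with log2 changes from 3.34 to 3.77 and adjusted p up to 0.00808 in limma. With unstressed 1 left out a Cacnb3 probe set was also called higher, and with unstressed 2 left out a Rem2 probe set. In each of these fits the remaining unstressed reading was under the filter level, so the probe set entered only through its immobilized readings. Probe sets of the 9 genes called higher numbered 3 with no filter (those of Gem, Rem2 and Cacna1d), in place of 1. Those called lower numbered 2 at a threshold of 0.10, in place of 1, and 0 to 2 with an array left out (0 without either immobilized array, and Cacna2d1 added without unstressed 1). These fits assume that a group's single remaining array varies like the other group's pair, and counts over all tested probe sets ran from 1765 to 6496 (1765 without immobilized 2, 2103 without immobilized 1). Among the other calcium genes 3 to 12 were then called higher and 4 to 9 lower, in place of 5 and 7: 3 higher without immobilized 1, 12 higher without unstressed 1, and 4 lower without immobilized 1, immobilized 2 or unstressed 1.

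Over all tested probe sets the median log2 change was -0.12, and 0.02 after median centring. The sign of small changes turned under some settings, none with a call: Cacna1b was 0.00 after median centring and 0.01 after quantile normalization, Cacna2d1 was 0.05 after median centring, and the dim Cacna1b probe set was 0.07 with median centring and 0.01 with an offset of 64, both without the filter. With an array left out the changes ran from -0.44 to 0.17 for Cacna1b, -0.46 to 0.04 for Cacna1c, -0.49 to 0.31 for Cacna2d1, -0.40 to 1.33 for Cacnb3, -0.14 to 2.45 for Cacna1h, -0.09 to 1.04 for Cacna2d3 and -0.05 to 0.82 for Calb1. The cause of these turns was not tested.

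For probe sets under the filter level, fits without the filter under other choices were added after seeing the data. With an array left out, 2 dim Cacna1a probe sets ran from -0.11 to 0.42 (-0.06 without unstressed 1) and from -0.24 to 0.41 (-0.07 without unstressed 2), and the dim Cacna1b probe set from -1.03 to 0.90 (0.02 without unstressed 2). The brighter Rem2 probe set had log2 changes from 2.89 with an offset of 64 to 3.74 without unstressed 1. No paired analysis was possible because the replicates were numbered in accession order and pair nothing between the groups.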

Other observations

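In several further calcium genes the probe sets disagreed, and these genes were picked out after their values were seen. The brightest probe set of Camk2d, a CaMKII subunit, had a log2 change of -0.14 that did not pass, while another was called lower at -0.70 (adjusted p = 0.0398 in limma). For Camk2b the brightest had 0.43 and did not pass, while a dimmer one was called higher at 0.76 (adjusted p = 0.0393 in limma). For Ppp3cb, a catalytic subunit of calcineurin, the brightest had -0.18 and another was called higher at 0.55 (adjusted p = 0.0189 in limma). Cabp1, a calmodulin-like protein that binds L-type channels, read 149 and 161 against 740 and 657 on a probe set under the filter level, with both immobilized readings above the unstressed ones, which lay within the range of the Bacillus controls. Its other probe set read 134 and 384 against 405 and 254, with overlap.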
